A study of Homo sapiens with 12 samples.

Results

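The genes described here are 43 components of the lysosome: 20 soluble hydrolases, counting the precursor of their activators, 7 membrane and transport proteins, and 16 subunits or accessory proteins of the vacuolar proton pump (V-ATPase). They were chosen by name from general knowledge of the organelle, with earlier results of these data known. Each was matched by symbol in a table of raw counts with 41878 gene rows. All 43 passed the filter on low counts, which left 18030 genes to be tested. The data came from the established human line HEK293T, derived from embryonic kidney and easily transfected. The cells received 1 µg of control vector or of a plasmid carrying TRPML3, the endosomal and lysosomal cation channel encoded by MCOLN3. The cells were then kept in 10% serum (fed) or in 0% serum for 4 h (starved), a change that the study used to induce autophagy, and polyadenylated RNA was sequenced. Vector fed, vector starved, TRPML3 fed and TRPML3 starved cells gave 3 biological replicates each, 12 libraries in all. Every group, the controls included, was transfected, and every library came from the same line. The labels do not give the share of cells that took up a plasmid, the time from transfection to harvest, or whether replicates were separate transfections, so p-values measure the spread between these libraries only.

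Lysosomes break down proteins, sugar chains and lipids with hydrolases that work best at acid pH. The V-ATPase supplies that acid: its cytosolic V1 sector hydrolyses ATP and turns a ring in the membrane-embedded V0 sector, which moves protons into the lumen. Heavily glycosylated membrane proteins line the organelle, and many of these genes share a promoter element read by TFEB and its relatives, transcription factors that enter the nucleus when nutrients are withdrawn and that respond to calcium released through TRPML channels.

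Library totals ran from 33101540 to 43700547 counts, so that 3 counts, taken as the detection floor, corresponded to at most 0.0978 CPM (counts scaled to a common library total, with TMM factors). MCOLN3 stood at 9.30 to 18.4 CPM in the 6 vector libraries and at 4926 to 58195 CPM in the 6 TRPML3 libraries, so every library matched its plasmid label, while the level of the transcript differed widely between libraries of the same plasmid. All 11 genes listed as typical of embryonic kidney or HEK293 cells passed the filter, with a summed level of 634 to 1152 CPM. Of 6 genes of differentiated kidney, only LRP2 passed it, and UMOD and SLC34A1 were at 0 in every library. Macrophages are rich in lysosomes. Of 6 macrophage genes 2 passed the filter, ITGAM with 965 counts and up to 8.33 CPM and CSF1R with 262 counts, and the summed level of the 6 was 0 to 10.1 CPM. TYROBP was at 0 throughout, and the row named PTPRC, whose identifier is not that of the primary assembly, had 4 counts in all. Of 4 fibroblast genes 3 passed the filter, COL1A1 with 4365 counts and up to 20.6 CPM, LUM with 1393 and DCN with 150. The summed level of the 4 was 2.81 to 25.2 CPM. Of 2 hepatocyte genes only ALB passed it, with 322 counts, and the summed level of the 2 was 0.258 to 2.05 CPM. Mitochondrial transcripts took 4.83 to 5.70% of the counts in the 4 libraries numbered 3, against 2.81 to 4.40% in those numbered 1 and 1.05 to 2.52% in those numbered 2.

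Promoter windows, from 250 bases before to 50 bases after an annotated start, were given by RefSeq (GRCh38.p14) for 29 of the 43 members. The letters CACGTG, the E-box core of the element that TFEB reads, were found in the window of 10 of these 29 members (34.5%), against 8.78% of all 27305 genes with a window. The longer palindrome TCACGTGA, which contains the core, was found in 5 members (17.2%), against 1.18% of all genes. Each motif reads the same on both strands. The stretches below show the element in these 10 members. They run 5′ to 3′ on the strand of the gene, with CACGTG in capitals, extended to TCACGTGA where those letters are present. A match describes the sequence only and is not evidence of binding. Many of these genes were already known to share this element, as given above, so the shares describe the members and test nothing.
ATP6V0B, chr1:43974900-43974929 (+): ggtCACGTGgtaccggcgcatCACGTGggc
ATP6V1G1, chr9:114587699-114587728 (+): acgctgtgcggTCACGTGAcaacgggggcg
ATP6V0D1, chr16:67481199-67481228 (-): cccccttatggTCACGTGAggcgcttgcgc
CD63, chr12:55729172-55729201 (-): ccgggtaggggcCACGTGgccctggccggg
LAMP1, chr13:113297044-113297073 (+): ggtCACGTGggtccagggtCACGTGccgct
LAMP1, chr13:113297199-113297228 (+): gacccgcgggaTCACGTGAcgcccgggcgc
CTSA, chr20:45891290-45891319 (+): tgtCACGTGgcgccggagtTCACGTGActc
CTSD, chr11:1763957-1763986 (-): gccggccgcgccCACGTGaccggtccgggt
CTSF, chr11:66568640-66568669 (-): ccctgcgcgcccCACGTGcctcctgtaaac
NEU1, chr6:31862930-31862959 (-): atgctgcgtgatCACGTGggaggagatgag
GAA, chr17:80101493-80101522 (+): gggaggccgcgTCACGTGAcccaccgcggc
GAA, chr17:80101538-80101567 (+): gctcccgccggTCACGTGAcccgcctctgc
LAMP1 holds the core 6 times in its window, ATP6V0B, CTSA, CTSF and GAA 2 times each. The longer palindrome stands at 2 places in LAMP1 and in GAA. The element occurred in all 3 roles, in 3 of 11 V-ATPase genes, 5 of 13 hydrolases and 2 of 5 membrane genes with a window.

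The 43 genes together made up 0.300 to 0.355% of a library. In these bulk samples a level shared by all cells and a level carried by some of them, such as the transfected ones, cannot be told apart. To compare genes with each other, mean CPM was divided by the length of the longest principal transcript in GENCODE 29. On this scale the membrane proteins had a median of 42.97 CPM per kb, the V-ATPase genes 36.8 and the hydrolases 14.8. The highest level was that of ATP6V1G1, a subunit of the stalk that holds V1 to V0, at 147 CPM per kb. CD63, a tetraspanin of late endosomes and lysosomes, followed at 115, LAMP2, an abundant glycoprotein of the lysosomal membrane, at 79.4, and ATP6V1F, a subunit of the central rotor, at 72.4. Among the hydrolases PSAP led with 66.5 CPM per kb; it encodes the precursor of the saposins, which present lipids to their hydrolases. The lowest 3 members were all soluble enzymes: SGSH, the sulfamidase of heparan sulfate breakdown, at 1.05 CPM per kb, NAGLU, which acts on the same polymer, at 1.30, and CTSF, a cysteine protease, at 3.17.

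**Figure D1:**
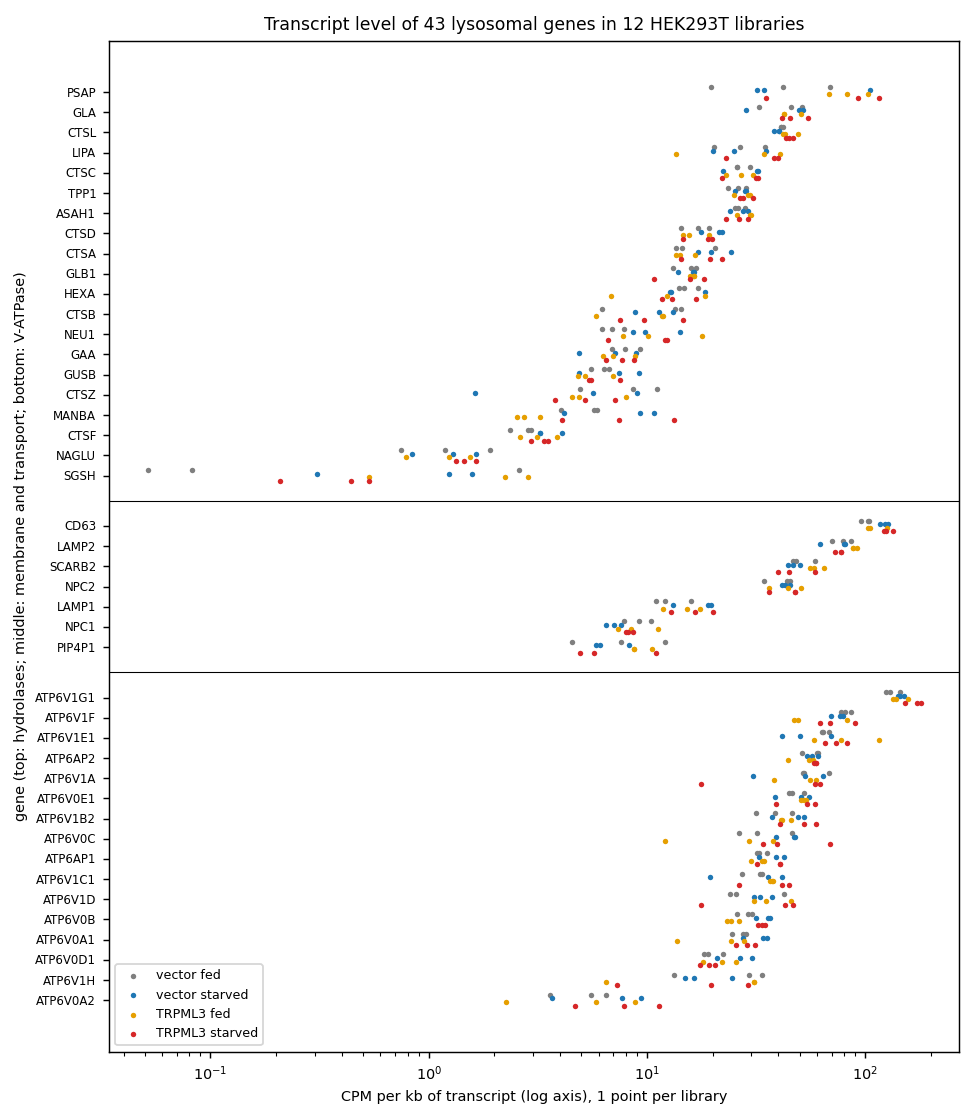
Each point is the level of 1 gene in 1 library, in CPM per kb of transcript on a log axis, coloured by group and ordered within each role by mean level. Hydrolases reach down to 1.05 CPM per kb on average (SGSH) and V-ATPase genes up to 147 (ATP6V1G1), and the points of the 4 groups largely overlap.

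The a subunit of V0, which sets where the pump is placed, has 4 genes in the human genome, and their use could be compared per length. ATP6V0A1 made up 68.2 to 87.1% of the per-length level of the 4 isoforms and ATP6V0A2 10.9 to 30.3%. TCIRG1, the isoform known from osteoclasts, gave 0.66 to 2.72%, and ATP6V0A4, known from acid-secreting kidney cells, at most 1.116%. ATP6V1B1, the kidney and inner ear form of the B subunit, had a mean of 1.02 CPM. Transcripts of the a subunit thus came mainly from its widely expressed isoforms.

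Members differed widely in reproducibility. The standard deviation (SD) of log2 CPM within groups, pooled over the 4 groups, had a median of 0.29 over the 43 members, against 0.55 over all genes tested, many of which are less abundant. By role it was 0.20 for membrane proteins, 0.29 for V-ATPase genes and 0.32 for hydrolases. CTSL, the cysteine protease cathepsin L, varied least, with an SD of 0.070. SGSH varied most, with an SD of 1.72: its 12 libraries ran from 0.14 to 7.95 CPM, and its vector fed libraries alone ran from 0.14 to 7.22 CPM. PSAP was abundant and yet variable. Its vector fed libraries stood at 120, 56.2 and 198 CPM, vector starved at 302, 98.4 and 91.2, TRPML3 fed at 196, 296 and 237, and TRPML3 starved at 265, 101 and 330. Deviations from the group means were little shared among hydrolases (mean pairwise r of 0.003) and somewhat shared among V-ATPase genes (0.18) and membrane proteins (0.17), against 0.0008 for all genes; the 12 libraries that give these values are the same for every pair.

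**Figure D2:**
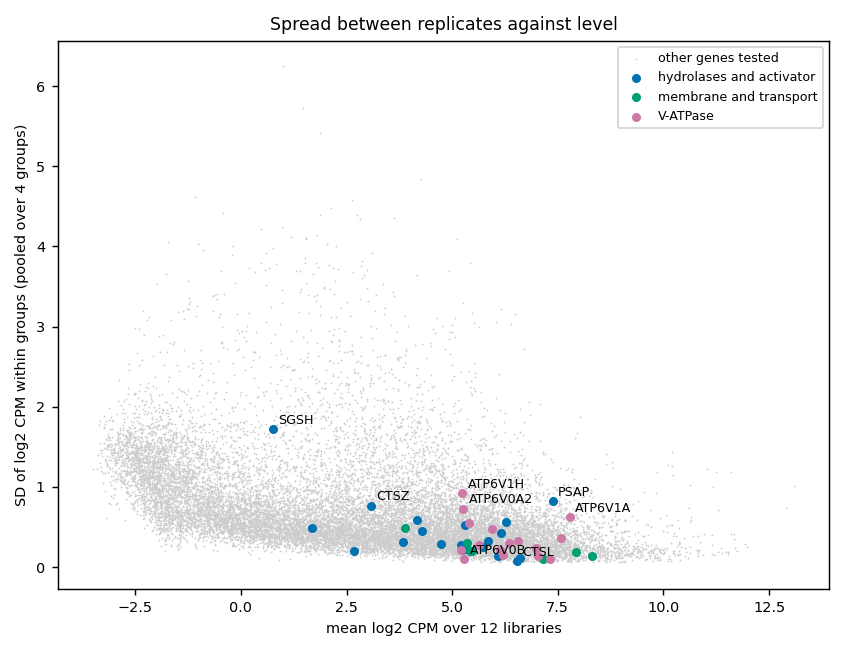
Each point is 1 gene, with its mean log2 CPM over 12 libraries on the x axis and its SD of log2 CPM within groups on the y axis; grey points are the other genes tested. Of the 43 members 9 lie above the median SD of all genes (0.55), SGSH highest at 1.72, and CTSL lies lowest at 0.070.

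Starvation was the first comparison, and it asks whether the lysosomal program responds to 4 h without serum. Each starvation effect was estimated in vector cells, in TRPML3 cells and as the mean of both. No member passed an adjusted p of 0.05 in the edgeR quasi-likelihood test with Benjamini-Hochberg adjustment over all genes, where the share of all genes called was 0.00555% in vector cells, 0% in TRPML3 cells and 0% for the average. At an unadjusted p under 0.05 there were 0 members in vector cells (4.44% of all genes), 2 in TRPML3 cells (5.71% of all genes) and 3 for the average (9.45% of all genes). All of these were higher in starved cells, the direction of 2.74% of all genes in TRPML3 cells and of 4.66% for the average. The members' share for the average was 6.98%, no larger than that of all genes. The DESeq2 Wald test gave 2 members at an unadjusted p in vector cells and 1 at an adjusted p for the average, described below with its gene. By role, V-ATPase genes were above 0 in 12 of 16 cases, with a median log2 fold change of 0.10, hydrolases in 14 of 20, with a median of 0.07, and membrane proteins in 3 of 7, with a median of -0.16. Without the libraries numbered 1 the medians were 0.11, 0.006 and 0.018, and without those numbered 3 they were 0.21, 0.17 and -0.066, in the same order, so the membrane median changed sign without the libraries numbered 1. Whether the roles differ was not tested. The median of all genes was 0.01, with 50.7% above 0.

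Among V-ATPase genes the largest estimates were those of V0, the proton-conducting sector, where the median log2 fold change was 0.34 and 5 of 6 genes were above 0. ATP6V0B encodes the c'' subunit of the proton-carrying ring. It stood at 39.1, 33.5 and 37.8 CPM in vector fed cells and at 46.3, 47.3 and 41.0 in vector starved cells. In TRPML3 cells it stood at 31.5, 30.3 and 34.2 CPM when fed and at 43.6, 44.9 and 42.0 when starved. All 6 starved libraries lay above all 6 fed libraries. Such a separation, in either direction, was seen in 1.25% of all genes tested and in no other member. That of ATP6V0B depended on the TMM factors, and against library totals alone the libraries overlapped. The vector fed library numbered 1 held 1425 ATP6V0B counts of 34059864, and the TRPML3 starved library numbered 3 held 1452 of 37288879. The average log2 fold change was 0.36 ± 0.12 (SE), a 1.29-fold difference with a 95% interval of 0.10 to 0.63 on the log2 scale, with an unadjusted p of 0.0118 (adjusted p of 0.391) in the edgeR quasi-likelihood test. The DESeq2 Wald test gave ATP6V0B an adjusted p of 0.00548, and it called 1.59% of all genes; over all alternatives the adjusted p ranged from 0.00548 to 1. Leaving out the libraries numbered 1 in all groups gave 0.36 with an unadjusted p of 0.11, and leaving out those numbered 2 gave 0.28 with an unadjusted p of 0.186.

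The other ring gene, ATP6V0C, encodes the c subunit. It stood at 54.2, 37.4 and 31.0 CPM in vector fed cells and at 55.3, 55.9 and 45.6 in vector starved cells. In TRPML3 cells it stood at 34.5, 44.2 and 14.2 CPM when fed and at 46.2, 80.7 and 39.9 when starved. Fed and starved libraries overlapped for both plasmids, and the average log2 fold change of 0.60 ± 0.29 (SE), the largest of the V-ATPase genes, had an unadjusted p of 0.0641 by edgeR; it lay between 0.41 (without the TRPML3 starved library numbered 2) and 0.80 (without the libraries numbered 1). The a subunits gave 0.33 ± 0.17 (ATP6V0A1) and 0.46 ± 0.37 (ATP6V0A2), ATP6V0D1, which couples the ring to the rotor, 0.09 ± 0.15, and ATP6V0E1 -0.02 ± 0.14. In V1, the cytosolic sector, 5 of 8 genes were above 0, with a median of 0.03. ATP6V1H, a regulatory subunit, had the lowest V1 value, -0.36 ± 0.44, and its libraries ran from 13.0 to 67.5 CPM; the value was -0.60 without the TRPML3 starved library numbered 3 and -0.099 without the libraries numbered 2. Whether V0 and V1 differ was not tested.

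**Figure D3:**
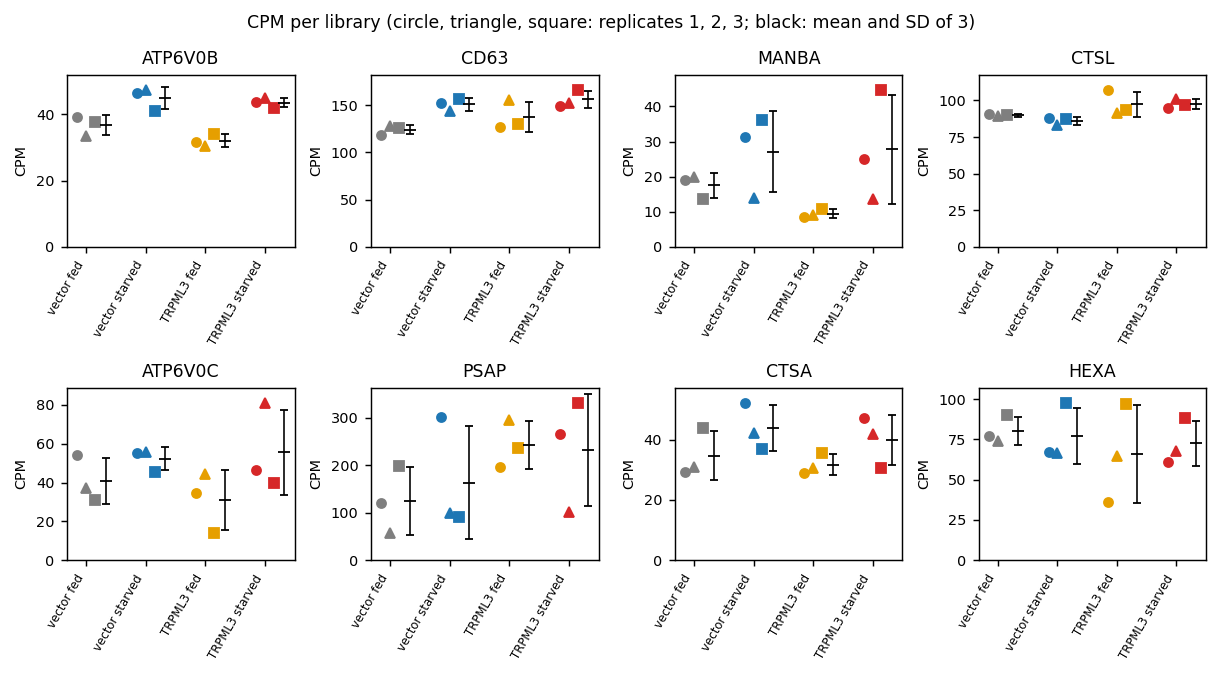
CPM in each library for 8 members, by group, with circles, triangles and squares for replicates 1, 2 and 3, and the mean with SD of 3 libraries in black. For ATP6V0B all starved libraries lie above all fed ones, for CTSL all TRPML3 libraries lie above all vector ones, and for HEXA the 4 squares lie above all other points.

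Of the hydrolases, MANBA, the lysosomal beta-mannosidase, had the largest starvation estimate. Vector fed libraries stood at 19.2, 19.8 and 13.5 CPM and vector starved libraries at 31.4, 14.0 and 36.1. TRPML3 fed libraries stood at 8.49, 9.16 and 10.8 CPM and TRPML3 starved libraries at 24.9, 13.7 and 44.6. The groups overlapped in vector cells and not in TRPML3 cells, and in both starved groups replicate 2 lay within the range of the vector fed libraries. In TRPML3 cells the log2 fold change was 1.55 ± 0.45 (SE), 2.92-fold, with an unadjusted p of 0.00612 (adjusted p of 0.812) by edgeR. The average over both plasmids was 1.09 ± 0.32, with an unadjusted p of 0.0058 (adjusted p of 0.363); without the libraries numbered 3 it was 0.69, with an unadjusted p of 0.0781. The starvation response of MANBA in TRPML3 cells exceeded that in vector cells by 0.91 ± 0.63 on the log2 scale, with an unadjusted p of 0.175 for this difference. For SGSH the average was -1.02 ± 0.87, and it turned to 0.84 when the vector fed library numbered 1 was left out.

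Among the membrane proteins only CD63 had an unadjusted p under 0.05. Its vector fed libraries stood at 118, 128 and 126 CPM and vector starved libraries at 152, 144 and 157. TRPML3 fed libraries stood at 127, 156 and 130 CPM and TRPML3 starved libraries at 149, 153 and 166. The groups did not overlap in vector cells; in TRPML3 cells the fed library numbered 2 lay among the starved ones. The average log2 fold change was 0.23 ± 0.097 (SE), with an unadjusted p of 0.0349 (adjusted p of 0.485) by edgeR. It kept an unadjusted p under 0.05 in 11 of 23 alternatives. LAMP1, the other major glycoprotein of the lysosomal membrane beside LAMP2, gave 0.28 ± 0.18 (0.03 without the libraries numbered 1), while LAMP2 gave -0.16 ± 0.10, so the point estimates of the 2 glycoproteins had opposite signs. NPC1, the membrane-bound cholesterol exporter, gave -0.25 ± 0.15, SCARB2, the receptor that carries glucocerebrosidase to lysosomes, -0.22 ± 0.12, and PIP4P1, a lysosomal phosphoinositide phosphatase, -0.32 ± 0.28. NPC2, the lumenal partner that hands cholesterol to NPC1, gave 0.04 ± 0.15.

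**Figure D4:**
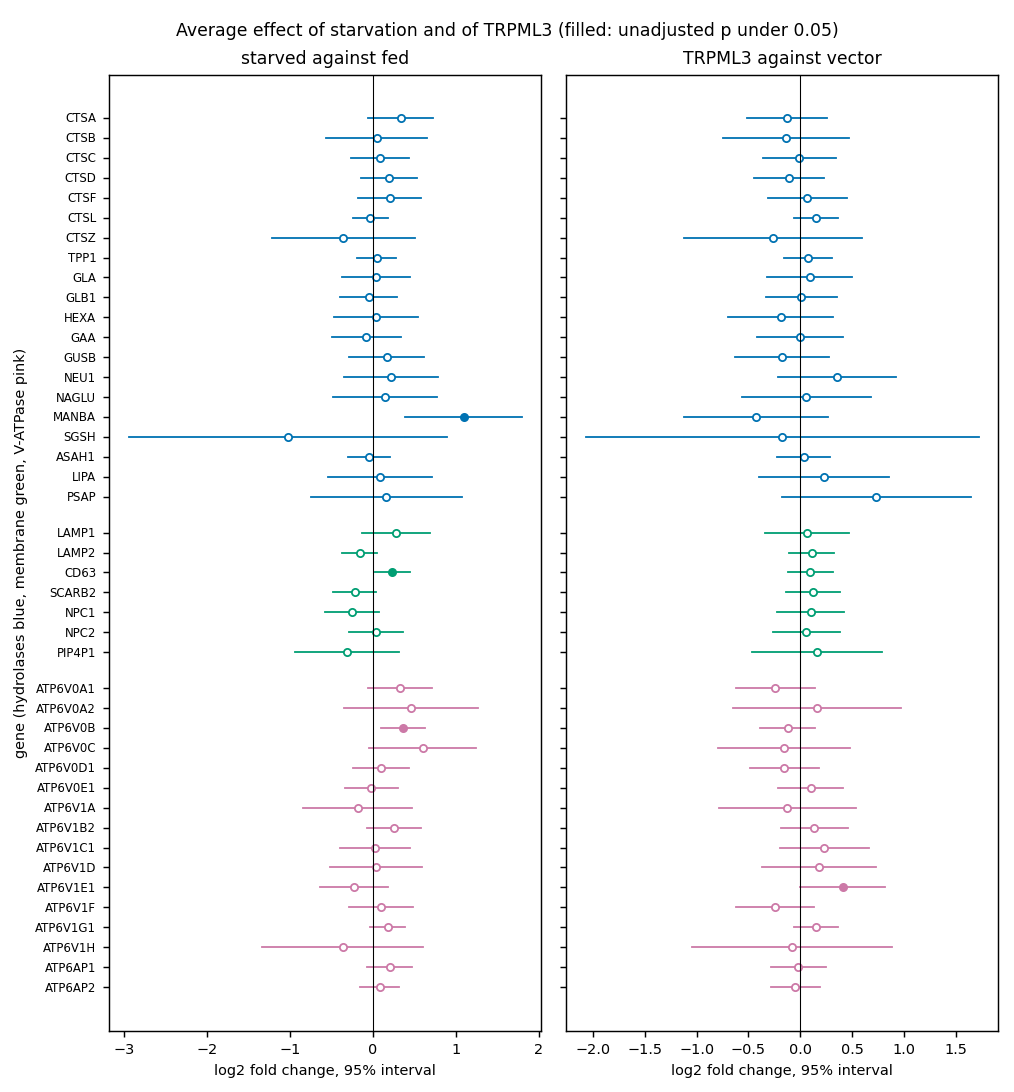
Average log2 fold change of each member with its 95% interval, starved against fed on the left and TRPML3 against vector on the right; filled points have an unadjusted p under 0.05 (MANBA, CD63 and ATP6V0B on the left, ATP6V1E1 on the right). V0 genes lie mostly right of 0 on the left, and all 7 membrane proteins lie slightly right of 0 on the right.

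Separation of fed and starved libraries was also counted within each plasmid. In vector cells 6 of 43 members had fed and starved libraries that did not overlap (CD63, CTSF, NEU1 and ATP6V0B higher in starved cells, NPC1 and CTSL lower), which is 14.0% of members against 9.93% of all genes. In TRPML3 cells there were 4 (MANBA, ATP6V0B and ATP6AP2 higher, LAMP2 lower), which is 9.30% against 11.2%. ATP6AP2, an accessory protein needed for pump assembly, stood at 103, 129 and 135 CPM in TRPML3 fed cells and at 136, 138 and 139 in TRPML3 starved cells. Intervals bound what these 12 libraries can hold: for the average starvation effect the 95% interval of 36 of the 43 members lay wholly within a 2-fold difference in either direction.

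The order of fed and starved libraries was also counted within each replicate number, with 1 starved library set against 1 fed library. In vector cells the starved library was the higher one for 28 of 43 members among libraries numbered 1, for 24 among those numbered 2 and for 23 among those numbered 3. In TRPML3 cells the counts were 35, 26 and 16 of 43. For all genes tested these shares lay between 48.4 and 51.7%. Deviations from group means gave r of -0.076 to 0.0075 between fed and starved libraries of the same number. These deviations thus showed no pairing by number, although the mitochondrial share followed the number in fed and starved libraries alike. Whether fed and starved libraries of 1 number were handled together was not tested. The genes of 1 library are not independent of each other, and whether the counts differ between numbers was not tested. CTSA, the carboxypeptidase that also protects sialidase and beta-galactosidase, was chosen after its values were seen to show a reversed order. The share of all genes with its order was not counted. Its fed libraries numbered 1, 2 and 3 stood at 29.2, 30.9 and 43.99 CPM with vector and at 29.03, 30.5 and 35.7 with TRPML3. Its starved libraries stood at 52.0, 42.4 and 36.9 CPM with vector and at 47.2, 41.8 and 30.6 with TRPML3. Starved libraries were thus above fed ones for numbers 1 and 2 and below them for number 3, with either plasmid. The members with the lowest starvation p-values, picked in part by these same libraries, kept the labelled order in number 3. There MANBA stood at 13.5 (fed) and 36.1 CPM (starved) with vector and at 10.8 and 44.6 with TRPML3. CD63 stood at 126 and 157 CPM with vector and at 130 and 166 with TRPML3. ATP6V0B stood at 37.8 and 41.0 CPM with vector and at 34.2 and 42.0 with TRPML3. MCOLN3 checks the plasmid labels only. No value here checks the serum labels apart from the outcome, so whether the libraries numbered 3 are fed or starved as labelled was not tested, and each starvation estimate over 12 libraries rests on those labels.

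With the 4 libraries numbered 3 left out, the average log2 fold change of CTSA was 0.63 ± 0.13 (SE), against 0.33 ± 0.18 with all 12 libraries. CTSA was chosen because its order was reversed in number 3, so leaving out those libraries had to raise its estimate. Its p-value in that fit tests nothing apart from this choice and is not given. In the same fit 8 members, CTSA included, had an unadjusted p under 0.05 in the edgeR quasi-likelihood test, and 0 an adjusted p under 0.05. Both are smaller shares of the members than the 23.3% and 4.49% of all genes. ATP6V0B gave 0.45 ± 0.12, LAMP1 0.49 ± 0.18, ATP6V1B2, the B subunit of the catalytic hexamer, 0.43 ± 0.15, ATP6AP1, an assembly factor, 0.32 ± 0.11, ATP6V1C1 0.29 ± 0.11, ATP6V1G1 0.26 ± 0.097 and SCARB2 -0.31 ± 0.11. No other member had an unadjusted p under 0.05 in it. The mitochondrial share given above also set the libraries numbered 3 apart, and its part in these orders was not tested.

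Replicate number also ordered some members irrespective of treatment, though by the test below in no larger a share than of all genes. HEXA, GAA and ASAH1 were chosen as examples after their values were seen. The share of all genes with such a separation was not counted. HEXA, the alpha subunit of beta-hexosaminidase A, stood at 88.2 to 97.3 CPM in the 4 libraries numbered 3 and at 36.0 to 77.3 in the other 8, with no overlap on this TMM scale. GAA, the acid alpha-glucosidase that degrades glycogen, stood at 31.5 to 33.6 CPM against 17.6 to 28.7. ASAH1, acid ceramidase, showed the reverse, with 58.0 to 64.6 CPM in libraries numbered 3 and 65.6 to 75.0 in the others. In 4 of 4 groups replicate 3 was the highest for 2 members (HEXA and GAA) and the lowest for 4 (ASAH1, ATP6V0C and the proteases CTSD and TPP1), against 4.38% and 4.46% of all genes. A test of the replicate number in an additive fit by edgeR gave unadjusted p-values under 0.05 for HEXA (0.0265) and ATP6V0C (0.0465), which is 4.65% of the members against 8.45% of all genes, and no adjusted p under 0.05 (0% of all genes).

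**Figure D5:**
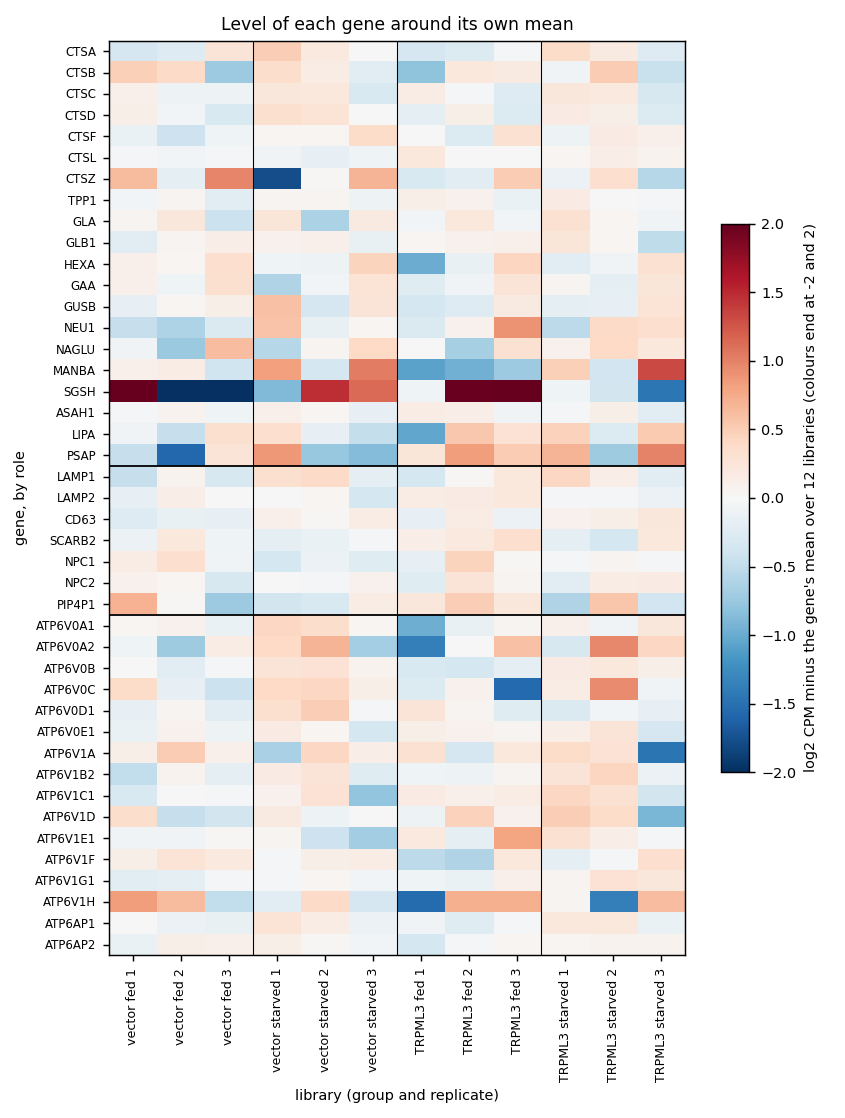
Log2 CPM of each member in each library minus its own mean over the 12 libraries, with roles separated by horizontal lines and groups by vertical lines; colours end at -2 and 2. SGSH, with a range of 0.14 to 7.95 CPM, has the strongest colours, and HEXA and GAA lie above their means in replicate 3 of all 4 groups.

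TRPML3 against vector asks whether the channel's overexpression alters lysosomal gene expression. By edgeR no member had an adjusted p under 0.05 in fed cells (0.0111% of all genes called), in starved cells (0.00555%) or for the average of both (0.0111%). At an unadjusted p there were 0 members in fed cells (2.21% of all genes), 0 in starved cells (2.2%) and 1 for the average (2.62%). The DESeq2 Wald test gave 1, 1 and 2 members at an unadjusted p and 0 at an adjusted p. The median average log2 fold change was 0.01 for hydrolases, -0.03 for V-ATPase genes and 0.10 for membrane proteins, against -0.01 for all genes. All 7 membrane proteins were above 0, from 0.06 (NPC2) to 0.16 (PIP4P1), against 48.1% of all genes, but each was smaller than its own SE except those of LAMP2 (0.11 ± 0.097), CD63 (0.10 ± 0.097) and SCARB2 (0.12 ± 0.12). With scaling by library size only, which moved the median of all genes from -0.01 to -0.10, NPC2 was at -0.03.

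The 1 member at an unadjusted p was ATP6V1E1, the E subunit of the peripheral stalk. It stood at 89.6, 89.1 and 95.2 CPM in vector fed cells and at 108, 82.0 and 161 in TRPML3 fed cells. In starved cells it stood at 97.1, 70.1 and 57.9 CPM with vector and at 116, 103 and 91.3 with TRPML3. The groups overlapped in both serum states, and the average log2 fold change was 0.41 ± 0.19 (SE), with an unadjusted p of 0.0494 (adjusted p of 1) by edgeR; without the libraries numbered 3 it was 0.24. ATP6V1F had the lowest V-ATPase value, -0.24 ± 0.17; it was -0.46 without the libraries numbered 3, with an unadjusted p of 0.00899 (adjusted p of 0.995), and -0.12 without those numbered 2. PSAP had the largest value of all members, 0.73 ± 0.41, with an unadjusted p of 0.104, and its groups overlapped in both serum states; without the vector starved library numbered 1 it was 1.13, with an unadjusted p of 0.0129. MANBA had the lowest, -0.43 ± 0.31; its 3 TRPML3 fed libraries lay below its 3 vector fed ones, while its starved libraries overlapped. Without the TRPML3 starved library numbered 3 the MANBA value was -0.69, with an unadjusted p of 0.0394, and without the one numbered 2 it was -0.26.

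CTSL was the most reproducible member and the only one whose 6 TRPML3 libraries all lay above its 6 vector libraries, a separation in either direction that 0.155% of all genes showed. It depended on the TMM factors, and against library totals alone the libraries overlapped. The vector fed library numbered 1 held 3315 CTSL counts of 34059864, and the TRPML3 fed library numbered 3 held 2868 of 33101540. Vector libraries stood at 91.0, 89.1 and 89.9 CPM when fed and at 87.8, 82.9 and 87.1 when starved. TRPML3 libraries stood at 107, 91.6 and 93.5 CPM when fed and at 94.6, 101 and 97.2 when starved. The gap between the highest vector and the lowest TRPML3 library was small, and the average log2 fold change of 0.15 ± 0.096 (SE), with a 95% interval of -0.06 to 0.36, had an unadjusted p of 0.151 by edgeR. The TRPML3 fed library numbered 1, with 6208 CPM of MCOLN3, had the highest CTSL level. The TRPML3 starved library numbered 2, with the most MCOLN3 (58195 CPM), had the next. The TRPML3 fed library numbered 2, with the least MCOLN3 of the TRPML3 libraries (4926 CPM), had the lowest CTSL level among them. Whether CTSL follows the MCOLN3 level was not tested.

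Without overlap in fed cells stood 4 members (LAMP2, CTSL and ATP6V1C1 higher with TRPML3, MANBA lower), against 7.09% of all genes, and in starved cells 4 (NPC1, CTSL and ATP6V1G1 higher, ATP6V0D1 lower), against 6.58%. ATP6V1G1, the most abundant member per length, stood at 156, 163 and 153 CPM in vector starved cells and at 164, 194 and 185 in TRPML3 starved cells, and its average log2 fold change with TRPML3 was 0.15 ± 0.096. For the average TRPML3 effect the 95% interval of 38 of the 43 members lay within a 2-fold difference in either direction.

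The study's remaining question is whether TRPML3 alters the response to starvation, which the interaction tests. By edgeR no member had an adjusted p under 0.05 (0% of all genes) or an unadjusted p under 0.05 (2.07% of all genes), and the DESeq2 Wald test gave 1 member at an unadjusted p. The median interaction was 0.00 for hydrolases, -0.11 for membrane proteins and 0.09 for V-ATPase genes, against 0.00 for all genes. ATP6V0B gave 0.16 ± 0.24 and ATP6V0C 0.49 ± 0.58. Only 22 of the 43 intervals lay within a 2-fold difference, so this comparison was the least precise of the set. MCOLN3 stood at 6208, 4926 and 39952 CPM in TRPML3 fed cells and at 41342, 58195 and 16888 in TRPML3 starved cells, and the part of this difference was not tested.

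Other lysosomal genes were taken from a wider list of hydrolases and their sorting factors, membrane proteins and V-ATPase genes, of which 81 were in the table and 77 passed the filter. By edgeR 0 had an adjusted p under 0.05 in any of the 7 comparisons, and from 0 (interaction) to 5 (average starvation) had an unadjusted p under 0.05; the 5 are 6.49% of the list, against 9.45% of all genes. For the average starvation effect 47 of 77 (61.0%) were above 0, against 50.7% of all genes, with a median of 0.07, and of those 5 genes 4 were higher and 1 was lower in starved cells. The largest value was that of SUMF1, the enzyme that activates sulfatases, at 2.10 ± 0.76, with libraries between 0.07 and 5.04 CPM. The smallest was that of GPR137B, a lysosomal membrane protein, at -1.01 ± 0.27, with an unadjusted p of 0.0032 (adjusted p of 0.349). GPR137B stood at 13.6, 12.8 and 6.08 CPM in vector fed cells and at 17.1, 14.3 and 7.24 in TRPML3 fed cells, while the 6 starved libraries lay between 5.196 and 6.59. The fed libraries numbered 3 were thus the ones nearest to the starved level. The starved libraries numbered 3 stood at 5.71 CPM with vector and 6.48 with TRPML3, among the other starved ones and not at the fed level. The serum labels were not tested here either. For the average TRPML3 effect 36 of 77 (46.8%) were above 0, against 48.1% of all genes, with a median of -0.01, from -0.70 ± 0.66 (CTSK) to 0.64 ± 0.38 (DMXL2, a factor of V-ATPase assembly). GALC and ATP6V1G3 were listed at 0 in every library.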

How the data were processed

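Raw counts per gene for 12 libraries were deposited by the authors, with an Ensembl identifier and a symbol per row. Per the submitters' processing notes, FastQC, fastp, HISAT2, StringTie and DESeq2 were used with GRCh38; the annotation release, the use of strand and the treatment of shared reads are not given in the sources used here, and whole numbers may be rounded estimates. Levels of genes with overlapping neighbours, pseudogenes or close paralogs are therefore uncertain (ATP6V0C, ATP6V1G1, ATP6V1E1 and CTSL among them), as are those of CTSB, GAA, NEU1 and PIP4P1, whose row identifiers are not those of the primary assembly in GENCODE 29. The authors' second table holds a normalized signal, raw counts divided by 1 factor per library (from the values), and was used only in an alternative. Genes were tested with edgeR 4.0.16 in R 4.3.3 (TMM, filterByExpr on group, robust quasi-likelihood test, 1 coefficient for each group, the 12 libraries in 1 fit, Benjamini-Hochberg adjustment over 18030 genes, threshold 0.05). Each SE is the size of the log2 fold change over the root of F, and intervals are at 95%. The scripts were checked on simulated data. Members and lists were chosen with earlier results of these data known.

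Replicate numbers come from the sample titles. Deviations from group means correlated between same-numbered vector and TRPML3 libraries (r of 0.11, 0.15 and 0.33 in fed cells, and 0.13, 0.095 and 0.32 in starved cells). The main fit used no pairing by number, and a replicate block was used only as an alternative. Libraries numbered 1 and 2 correlated about as much across numbers (at most 0.115 among fed libraries and 0.116 among starved ones). In these correlations only number 3 stood apart, while the mitochondrial share also set numbers 1 and 2 apart. Between fed and starved libraries of the same plasmid r lay from -0.076 to 0.0075 for equal numbers and from -0.079 to 0.089 for unequal ones. Values in every library are given for members with an unadjusted p under 0.05, with the highest or lowest level per length, the extreme average effect of their role, or the largest or smallest spread. ATP6AP2, CTSA, HEXA, GAA, ASAH1 and the genes of the fit without replicate 3 were chosen after their values were seen. The alternatives scaled by library size alone, by DESeq2 size factors or without MCOLN3, tested with DESeq2 1.42.0 (Wald), and used no filter, at least 10 counts in every library, a replicate block, limma-trend 3.58.1 on log2 of the normalized signal + 1, the 6 libraries of a comparison alone, and leaving out each library or replicate number. Gene lengths came from GENCODE 29, in which 93.9% of identifiers were found.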

Additional observations from a re-analysis of the deposited data

How the results depend on the processing

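Member counts at an adjusted p under 0.05 were 0 in every comparison and alternative, except 1 (ATP6V0B) for the average starvation effect with the DESeq2 Wald test. Counts at an unadjusted p moved by over 1.5 times as follows; among the other alternatives that kept all libraries, starvation in TRPML3 cells gave 2 to 3 members and average starvation 2 to 4. With library size only they were 1 for the TRPML3 comparison in fed and 1 in starved cells, 0 for the average TRPML3 effect and 4 for the replicate number. With the DESeq2 Wald test they were 1, 1, 2 for starvation in vector cells, 1 for the interaction, 2 for the average TRPML3 effect and 5 for the replicate number (likelihood-ratio test). With the replicate block the count was 1 for TRPML3 against vector in fed cells and 0 for the average TRPML3 effect, and the block changed no adjusted call. The count was 1 with only the 6 fed libraries, 0 for the average TRPML3 effect with limma-trend and 1 for the replicate number with at least 10 counts in every library. Leaving out libraries gave 0 to 2 members for TRPML3 against vector in fed cells, 0 to 2 in starved cells, 0 to 1 for starvation in vector cells, 1 to 5 in TRPML3 cells, 0 to 2 for the interaction, 0 to 2 for the average TRPML3 effect, 0 to 8 for average starvation and 0 to 2 for the replicate number. Of 495 recomputed role medians 431 kept their sign and 64 changed it. Of 369 values of named members 358 kept their direction and their side of an adjusted p of 0.05. None of these members passed that threshold in the main fit, so this count says little about the size of an effect. The average starvation value of LAMP1 lay between 0.03 and 0.49 and counted as kept throughout. NPC2 turned to -0.034 for the average TRPML3 effect with library size only and lay between -0.026 and 0.21 when libraries were left out; PIP4P1 lay between -0.16 and 0.44 there and between -0.54 and 0.018 for average starvation, and SGSH between -1.47 and 0.84. The cause was not tested. Every member was detected in every library; the lowest counts were those of SGSH, 263, 10 and 5 in the vector fed libraries.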
